A study of Mus musculus with 4 samples.

Results

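The MHC class I antigen presentation genes described here were 10 genes matched by symbol among the 30360 genes of the deposited table: the immunoproteasome subunits Psmb8, Psmb9 and Psmb10, the peptide transporter subunits Tap1 and Tap2, the loading factor Tapbp, the heavy chains H2-K1 and H2-D1, their light chain B2m, and the regulator Nlrc5. All 10 were found, each in 1 row, and all 10 had UMIs (unique molecular identifiers, which count captured mRNA molecules) in every library. They were measured by droplet single-cell RNA-seq in 4 colonic organoid cultures (colonoids), 1 culture and 1 library per group: wildtype treated with vehicle (untreated), wildtype with TNF, Tnfr2-/- untreated and Tnfr2-/- with TNF. The cultures came from the distal colon of 16-week-old mice and were harvested 7 days after passage 5; treated cultures received TNF (20 ng/ml) starting on day 1 and ending on day 6. Tnfr2-/- was a whole-body deletion, so epithelial and mesenchymal cells of those cultures carried it alike. With 1 culture per group, genotype and treatment cannot be told apart from differences between cultures, so no test between groups was possible and none is given.

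MHC class I molecules show short peptides from the inside of a cell to CD8+ T cells. Immunoproteasome subunits replace their constitutive counterparts in the proteasome and change which peptides are cut, TAP1 and TAP2 carry peptides into the endoplasmic reticulum, tapasin (Tapbp) holds the transporter and the empty heavy chain together, and B2m completes the molecule before it moves to the surface. Interferons and TNF are known to raise many of these genes, partly through NLRC5, a transactivator that acts on a shared block of promoter boxes, and through IRF and NF-kappaB factors.

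Of the 10 members, 8 have a RefSeq promoter window of 300 bases in GRCm38.p6, from 250 bases before to 50 bases after the start of the transcript; Tap2 and Nlrc5 have none in the table used. The bases before the start are shown for B2m and for both heavy chains because these 3 held the pair of boxes TGACG and ATTGG, and for Psmb8, which had the largest epithelial to mesenchymal difference of the members on the log2(CPM + 1) scale in 3 of 4 libraries. Capitals mark GAAANNGAA (core of the interferon-stimulated response element), GGGGATTCC (kappaB), TTCNNNGAA (gamma-activated site), and TGACG followed by ATTGG with 10 to 30 bases between them (X2 and Y boxes), searched on both strands.
H2-K1, chr17:34000348-34000597, minus strand: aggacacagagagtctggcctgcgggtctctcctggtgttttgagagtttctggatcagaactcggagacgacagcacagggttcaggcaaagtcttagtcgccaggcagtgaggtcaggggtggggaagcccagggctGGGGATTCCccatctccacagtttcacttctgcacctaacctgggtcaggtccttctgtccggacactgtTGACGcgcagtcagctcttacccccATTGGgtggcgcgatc
H2-D1, chr17:35262844-35263093, plus strand: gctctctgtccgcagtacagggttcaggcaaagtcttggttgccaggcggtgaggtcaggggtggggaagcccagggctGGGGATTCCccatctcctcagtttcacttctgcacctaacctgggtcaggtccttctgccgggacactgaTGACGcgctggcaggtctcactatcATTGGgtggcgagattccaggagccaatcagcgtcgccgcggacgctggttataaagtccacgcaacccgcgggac
B2m, chr2:122147437-122147686, plus strand: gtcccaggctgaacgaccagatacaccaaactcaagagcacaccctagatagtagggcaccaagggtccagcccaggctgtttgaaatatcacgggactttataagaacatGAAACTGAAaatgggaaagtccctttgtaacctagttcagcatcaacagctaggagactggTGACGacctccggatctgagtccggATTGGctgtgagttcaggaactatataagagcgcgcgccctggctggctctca
Psmb8, chr17:34197945-34198194, plus strand: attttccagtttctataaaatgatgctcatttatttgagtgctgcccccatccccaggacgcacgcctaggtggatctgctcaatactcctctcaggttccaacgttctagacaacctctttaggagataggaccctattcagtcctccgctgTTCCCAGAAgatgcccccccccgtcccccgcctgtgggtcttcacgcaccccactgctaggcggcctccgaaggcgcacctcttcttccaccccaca

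The TGACG and ATTGG boxes stood 25 bases apart, first base to first base, in H2-K1, H2-D1 and B2m, and 3 of the 8 members with a window held the pair, against 0.743% of 32851 mouse windows. GGGGATTCC lay 70 bases before TGACG in H2-K1 and in H2-D1, and was found in 2 of 8 members against 0.25% of windows. GAAANNGAA was found in 1 of 8 members (B2m, 8.56% of windows), and TTCNNNGAA in 1 of 8 (Psmb8, 8.3% of windows). Tap1 and Psmb9 are transcribed away from each other, and their windows shared 275 bases. A match is a description of letters, and no match says only that these letters are not in that window.

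By GENCODE M21 annotation (GRCm38), Tapbp (33915899 to 33929292, plus strand), H2-K1 (33996017 to 34000347, minus), Psmb9 (34181987 to 34187764, minus), Tap1 (34187553 to 34197225, plus), Psmb8 (34197721 to 34201454, plus), Tap2 (34203527 to 34216321, plus) and H2-D1 (35262730 to 35267499, plus) lie on chromosome 17. B2m lies on chromosome 2 (122147686 to 122153083, plus), and Psmb10 (105935735 to 105938444, minus) and Nlrc5 (94434356 to 94527272, plus) lie on chromosome 8. Psmb9, Tap1, Psmb8 and Tap2 overlap or lie close together, and H2-K1, H2-D1 and the H2-Q genes are close relatives in sequence, so that reads shared between relatives could be assigned unevenly.

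The 4 libraries held 980 to 2589 cells and 44547639 to 87228093 UMIs. Of 6155 cells, 4172 were deposited as epithelial and 1948 as mesenchymal, and 35 carried no class. The untreated wildtype culture held 1430 mesenchymal cells and the other cultures 90 to 306, and the mesenchymal classes differed between cultures: Mesenchyme-Ifitm1 had 892 cells in untreated wildtype and at most 1 elsewhere, and Mesenchyme-Ptges was the only class with at least 20 cells in all 4. Levels below are UMIs of a gene summed over the cells of a class and library and divided by all UMIs of those cells, as CPM (counts scaled to a common library total), with exact Poisson intervals (95%), which like every interval below cover counting error only. Differences are in log2(CPM + 1), which understates changes of low genes, and a gene was called when it differed at least 2-fold and reached 20 CPM in at least 1 of the sums compared. The deleted gene, Tnfrsf1b, was not absent from the Tnfr2-/- libraries: in epithelial cells it stood at 4.17 and 12.1 CPM in untreated and TNF-treated wildtype and at 1.82 and 6.89 CPM in Tnfr2-/-, and 3' tags outside the deleted part would not check the label. Epithelial classes carried the epithelial markers (Epcam, Krt8, Krt18, Cdh1) at 7337 to 9120 CPM in sum, and mesenchymal classes carried them at 98.3 to 536 CPM.

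The strongest pattern was between cell types: in each of the 4 libraries, all 10 members were higher in mesenchymal cells. Psmb8, which supplies the chymotrypsin-like inducible subunit, differed most on the log2(CPM + 1) scale in 3 of the 4 libraries (5.57, 4.57, 4.04 and 4.73), and in untreated Tnfr2-/- B2m did (4.11). It stood at 5.30 (4.69 to 5.98), 10.1, 15.7 and 9.50 CPM in the epithelial cells of untreated wildtype, TNF-treated wildtype, untreated Tnfr2-/- and TNF-treated Tnfr2-/-, and at 298 (293 to 304), 264, 274 and 278 CPM in the mesenchymal cells of the same libraries. The mesenchymal level of Psmb8 was thus 56.3, 26.1, 17.4 and 29.2 times the epithelial level. The mesenchymal sums of Psmb8 lay closer together than the epithelial sums, but they pool classes in different proportions. Within Mesenchyme-Ptges alone, Psmb8 read 105 CPM in untreated wildtype and 278 CPM in TNF-treated Tnfr2-/-. Of the members, 9 of 9 that reached 20 CPM were called higher in mesenchymal cells in each library, against 25.1%, 21.2%, 23.1% and 20.9% of all genes at that minimum, in the order above. With Mesenchyme-Ptges as the only mesenchymal class the count was 8 in the untreated library of each genotype, where Psmb10 read 58.4 and 58.8 CPM against 40.9 and 41.8 CPM in epithelial cells. The median log2 difference of these 9 members was 2.83, 2.30, 2.56 and 2.45, where the median of all genes was 0.14, 0.10, -0.08 and -0.03.

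**Figure D1:**
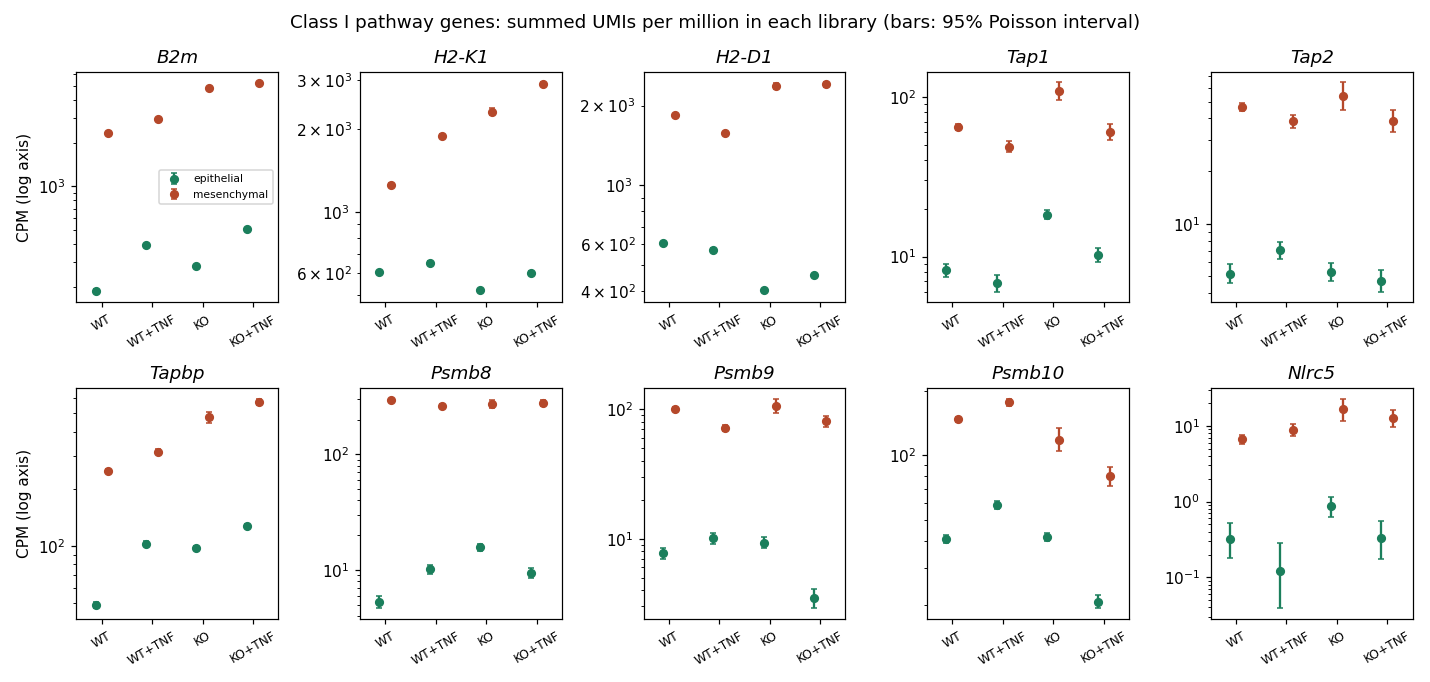
Level of each member (CPM, log axis) in epithelial cells (green) and mesenchymal cells (red) of the 4 libraries, 1 point per library and cell type; WT is wildtype and KO is Tnfr2-/-. Every mesenchymal point lies above the epithelial point of the same library, by the widest margin for Psmb8 and Nlrc5 and by the narrowest for H2-K1 in untreated wildtype (2.08-fold).

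Among the other peptide-supply genes, Psmb9 (the inducible counterpart of Psmb6) read 7.71, 10.1, 9.34 and 3.47 CPM in epithelial cells and 101, 71.6, 106 and 80.5 CPM in mesenchymal cells. Psmb10 (the inducible trypsin-like subunit) read 40.9, 58.7, 41.8 and 20.8 CPM against 147, 177, 119 and 80.1 CPM, a 2.84-fold to 3.84-fold difference. Of the 3 inducible subunits, Psmb10 was the one closest between the cell types.

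The constitutive counterparts Psmb5, Psmb6 and Psmb7, the activator genes Psme1, Psme2 and Psme3, and the assembly factor Pomp gave 0 calls of 7 in either direction in every library. Psme1 and Psme2 were nonetheless higher in mesenchymal cells of every library, by less than 2-fold. Psme2 read 134, 157, 149 and 93.5 CPM in epithelial cells and 256, 262, 200 and 164 CPM in mesenchymal cells. Psmb5 stood at 349, 304, 319 and 205 CPM in epithelial cells and at 238, 281, 170 and 163 CPM in mesenchymal cells. The share of the inducible partner in each pair was therefore much lower in epithelial cells. Psmb8 made up 1.50% (exact binomial interval 1.32 to 1.68), 3.22%, 4.69% and 4.43% of Psmb8 and Psmb5 UMIs in epithelial cells, and 55.6% (54.9 to 56.4), 48.4%, 61.6% and 63.0% in mesenchymal cells. Psmb9 made up 2.09% to 3.69% of Psmb9 and Psmb6 UMIs in epithelial cells and 22.2% to 36.7% in mesenchymal cells. Psmb10 made up 17.9% to 33.9% of Psmb10 and Psmb7 UMIs in epithelial cells and 51.8% to 63.4% in mesenchymal cells. Over these sums of all epithelial and all mesenchymal cells, the ranges did not overlap for any of the 3 pairs. Single classes could lie closer together. In Mesenchyme-Ptges of untreated wildtype and untreated Tnfr2-/-, Psmb10 (58.4 and 58.8 CPM, from 20 and 49 UMIs) was below Psmb7 (67.1 and 73.3 CPM). In this class of both TNF-treated libraries Psmb10 was above Psmb7. How often other pairs of genes separate the cell types in this way was not tested.

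**Figure D2:**
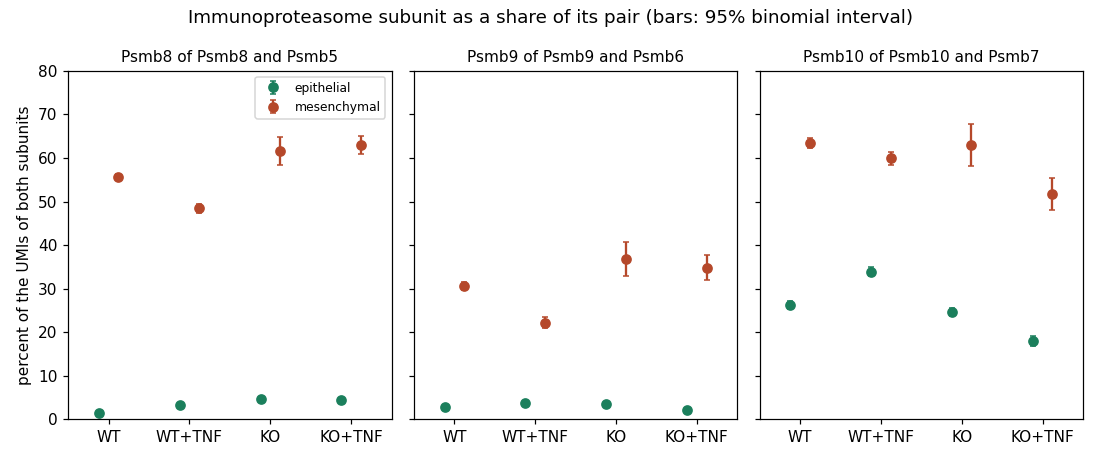
Share (percent of UMIs) of the inducible subunit within each inducible and constitutive pair, in epithelial (green) and mesenchymal (red) cells of each library, with exact binomial intervals (95%); WT is wildtype and KO is Tnfr2-/-. The Psmb8 share lies between 1.50% and 4.69% in epithelial cells and between 48.4% and 63.0% in mesenchymal cells.

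For peptide transport, Tap1 read 8.21, 6.79, 18.3 and 10.2 CPM in epithelial cells and 64.6, 48.8, 108 and 60.1 CPM in mesenchymal cells. Tap2, the other transporter subunit, read 5.19, 7.04, 5.31 and 4.73 CPM against 46.6, 38.6, 53.7 and 38.8 CPM. Both genes were highest in untreated Tnfr2-/- mesenchymal cells, a sum of only 90 cells. The loading factor Tapbp read 49.0, 103, 97.7 and 128 CPM in epithelial cells and 249, 314, 476 and 577 CPM in mesenchymal cells, so that its order over the libraries was not the same in the 2 cell types.

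The heavy chains differed least of the members between the cell types in wildtype (2.08-fold to 3.04-fold), but not in Tnfr2-/- (4.46-fold to 5.90-fold), where Psmb10 did. H2-K1 read 604, 652, 518 and 599.6 CPM in epithelial cells and 1254, 1886, 2310.0 and 2901 CPM in mesenchymal cells. H2-D1 read 606, 572, 403 and 458 CPM against 1839, 1572, 2377 and 2404 CPM. B2m, the light chain that both need, differed far more: 189 (185 to 192), 390, 278 and 502 CPM in epithelial cells and 2335 (2319 to 2351), 2958, 4813 and 5214 CPM in mesenchymal cells, a ratio of 12.4, 7.58, 17.3 and 10.4. Over the 4 epithelial sums B2m thus ran from 189 to 502 CPM, while H2-K1 ran from 518 to 652 CPM.

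Nlrc5, the regulator, was close to absent from epithelial cells, with 16, 5, 44 and 13 UMIs and 0.318, 0.121, 0.869 and 0.327 CPM. Mesenchymal cells held 231, 130, 36 and 60 UMIs, or 6.64, 8.84, 16.5 and 12.6 CPM. The mesenchymal level was 20.9, 73.1, 19.0 and 38.5 times the epithelial one, a ratio above that of Psmb8 in 3 of 4 libraries but resting on few UMIs. Nlrc5 was below the minimum of 20 CPM in both sums of every library and enters no count of called genes between them.

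Mesenchymal transcripts counted in epithelial cells were measured with marker genes. The mesenchymal markers Pdgfra, Acta2, Col1a1, Col3a1 and Vim stood in epithelial cells at 0% to 0.317% of their mesenchymal level (5, 5, 4 and 4 of 5 markers with UMIs, Acta2 at 0 in both Tnfr2-/- libraries, 3.87 to 15.8 CPM in sum against 5090 to 9002 CPM). Psmb8 stood at 1.78% to 5.74% of its mesenchymal level, Nlrc5 at 1.37% to 5.25% and B2m at 5.78% to 13.2%, all above the range of the markers. The Nlrc5 values rest on few UMIs, and these sums pool epithelial classes that differ in marker levels (below). The part of mesenchymal transcripts in the epithelial values was not tested. Markers of immune cells were at most 0.118 CPM in epithelial cells for 6 of 7 genes, including Ptprc and Cd3e, and Csf1r read 0.934, 1.02, 3.71 and 7.52 CPM, whose part in the epithelial values was not tested.

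At single-cell level, with every cell thinned to 5000 UMIs and shallower cells left out (43, 290, 33 and 12 epithelial cells; 13, 8, 4 and 2 mesenchymal cells), Psmb8 was detected in 2.03%, 4.58%, 5.86% and 4.85% of epithelial cells and in 67.4%, 70.1%, 74.4% and 70.0% of mesenchymal cells. Without thinning these shares were 10.9%, 22.1%, 23.9% and 20.5% against 93.2%, 96.1%, 95.6% and 95.1%, at median depths of 30306 to 41057 UMIs in epithelial and 22642.5 to 48633 UMIs in mesenchymal cells. B2m was detected in 57.3%, 79.4%, 62.2% and 80.9% of thinned epithelial cells and in at least 99.2% of thinned mesenchymal cells. Nlrc5 was detected in 0 of 846 thinned epithelial cells of TNF-treated Tnfr2-/-. A limit of 3 counts, which is not an exact interval, is 0.355% of cells at that depth. Without thinning 1.28% of these cells had a UMI, so the thinned value does not limit the share of cells that express the gene. In sums over cells, fewer cells with a transcript and less of it per cell cannot be told apart, and for the low members both shares and sums rest on 1 or a few UMIs per cell.

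The order held class by class. Over the 27 combinations of class and library with at least 20 cells, 19 epithelial and 8 mesenchymal, the lowest mesenchymal class was above the highest epithelial class of the same library for 10 of 10 members in all 4 libraries. Of 8224 genes that reached 20 CPM over all mesenchymal or all epithelial cells of a library, 15% had this order, and 9 of the members were among these genes. Erap1, which trims peptides in the endoplasmic reticulum, and the chaperone Canx had it too, while Psme1, Psme2, Psmb5, Psmb6, Psmb7, Calr and Pdia3 did not. The margin was narrow for H2-K1 and Psmb10 in untreated wildtype, where H2-K1 read 975 CPM in Mesenchyme-generic and 863 CPM in Absorptive cells, and Psmb10 read 58.4 CPM in Mesenchyme-Ptges (20 UMIs) and 49.7 CPM in Absorptive cells. It was as narrow for Psmb10 in untreated Tnfr2-/-, with 58.8 CPM in Mesenchyme-Ptges and 50.6 CPM in Secretory-Reg4-Spdef-Lyz1. For Psmb8 the lowest mesenchymal sum of any library (105 CPM, Mesenchyme-Ptges of untreated wildtype) was still above the highest epithelial sum (64.8 CPM, Secretory-Reg4-Ang4 of TNF-treated wildtype).

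Among epithelial classes the heavy chains were lowest in Progenitor.3 in each of the 3 libraries where it had at least 20 cells, a class with a median of 6364 to 9570 UMIs per cell there. H2-D1 ranged from 117 CPM in Progenitor.3 of untreated Tnfr2-/- to 1016 CPM in Absorptive cells of untreated wildtype, with a median of 627 CPM over the 19 sums. H2-K1 ranged from 172 to 1048 CPM with a median of 629 CPM, and Tapbp from 17.0 to 172 CPM with a median of 79.7 CPM. B2m ranged from 104 CPM in Enteroendocrine cells of untreated wildtype to 618 CPM in Secretory-Reg4-Ang4. Secretory-Reg4-Ang4, a class found in TNF-treated wildtype only (246 cells with a median of 1957.5 UMIs), also held the highest epithelial levels of H2-K1, Psmb8 and Psmb9, the last 2 from 33 and 8 UMIs. This class also carried 5 of 5 mesenchymal markers at 597 CPM in sum (304 UMIs), against 5491 CPM in the mesenchymal cells of that library and 15.8 CPM in its epithelial cells as a whole. The next highest epithelial sum was Enteroendocrine of untreated wildtype at 232 CPM, and the part of these transcripts in the levels of both classes was not tested.

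For 4 of the members at the minimum, Progenitor.2 was above Progenitor.1 in each library, and for Psmb10 it was below. Progenitor.2 was above Progenitor.1 for B2m (278 against 163 CPM in untreated wildtype, 509 against 326 CPM in TNF-treated wildtype, 497 against 225 CPM in untreated Tnfr2-/- and 544 against 249 CPM in TNF-treated Tnfr2-/-). H2-K1, H2-D1 and Tapbp were likewise higher in Progenitor.2 in all 4 libraries. Psmb10 was lower there, at 21.4 against 37.3 CPM, 42.4 against 66.5 CPM, 26.8 against 45.2 CPM and 17.8 against 35.1 CPM. Of the 5 members at the minimum, 2, 1, 2 and 2 were called higher in Progenitor.2, against 15.5%, 12.1%, 11.9% and 11.5% of genes. Progenitor.2 made up 62, 273, 233 and 716 cells and Progenitor.1 546, 335, 647 and 95 cells of the 4 libraries, so the epithelial sum of TNF-treated Tnfr2-/- was mainly Progenitor.2 and that of untreated Tnfr2-/- mainly Progenitor.1. Progenitor.2 of untreated wildtype had a median of 15574.5 UMIs per cell, against 33685 to 39167 UMIs in the other libraries.

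With TNF in wildtype, epithelial B2m was 390 against 189 CPM and Tapbp 103 against 49.0 CPM, log2 differences of 1.05 for each (counting intervals of the log2 ratio 1.01 to 1.09 and 0.99 to 1.14). These were 2 of the 5 members at the minimum called higher, where 2.54% of genes were, and 0 of 5 were called lower, where 1.08% were. Both calls sat at the threshold: with TMM or median-of-ratios scaling, or within Progenitor.1 or Progenitor.2 alone, neither reached 2-fold (B2m in Progenitor.1 was just under it before rounding), and over 13 alternatives the difference ranged from 0.87 to 1.12 for B2m and from 0.58 to 1.06 for Tapbp. The heavy chains, which pair with B2m, moved little, with differences of 0.11 for H2-K1 and -0.08 for H2-D1, each with the other sign in 2 of 13 alternatives. Psmb8 and Psmb10 differed by 0.82 and 0.51, Psmb9 by 0.34, Tap2 by 0.38 and Tap1 by -0.24.

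In Tnfr2-/- epithelial cells B2m was again higher with TNF (502 against 278 CPM, a log2 difference of 0.85), but none of the 5 members at the minimum was called, where 5.55% of genes were called higher and 7.81% lower and the median gene differed by -0.12. With TMM or median-of-ratios scaling B2m was the 1 member called higher. The peptide-supply and transport genes were lower with TNF in this genotype, with differences of -0.97 for Psmb10 (20.8 against 41.8 CPM), -1.21 for Psmb9, -0.78 for Tap1 and -0.67 for Psmb8. Hence Psmb8, Psmb9 and Psmb10 were above 0 in wildtype and below 0 in Tnfr2-/-, under each of 13 alternatives, although the wildtype difference of Psmb9 in Progenitor.2 was close to 0 (0.0029). Whether TNF acted differently on them was not tested, since each difference compares 1 library with 1 library.

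The class mix moved with these values. Within Progenitor.1, B2m differed with TNF by 1.00 in wildtype and by 0.15 in Tnfr2-/-, and Tapbp by 0.95 and -0.01. Within Progenitor.2, B2m differed by 0.87 and 0.13, and Tapbp by 0.58 and -0.34. The epithelial B2m difference of 0.85 in Tnfr2-/- was therefore not seen in either large class, whereas the wildtype difference was seen in both. Of the 5 members at the minimum, 0 were called in Progenitor.1 in either genotype, against 2.46% of genes in wildtype and 2.02% in Tnfr2-/-, and 0 in Progenitor.2, against 7.46% and 1.99%. In Tnfr2-/-, Psmb8 and Psmb10 were lower with TNF within each of these classes too. Psmb8 differed by -0.96 and Psmb10 by -0.36 in Progenitor.1, and by -0.94 and -0.57 in Progenitor.2. Progenitor.1 of TNF-treated Tnfr2-/- held only 36 Psmb8 UMIs. The part of the mix of cells, between or within classes, was not tested.

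**Figure D3:**
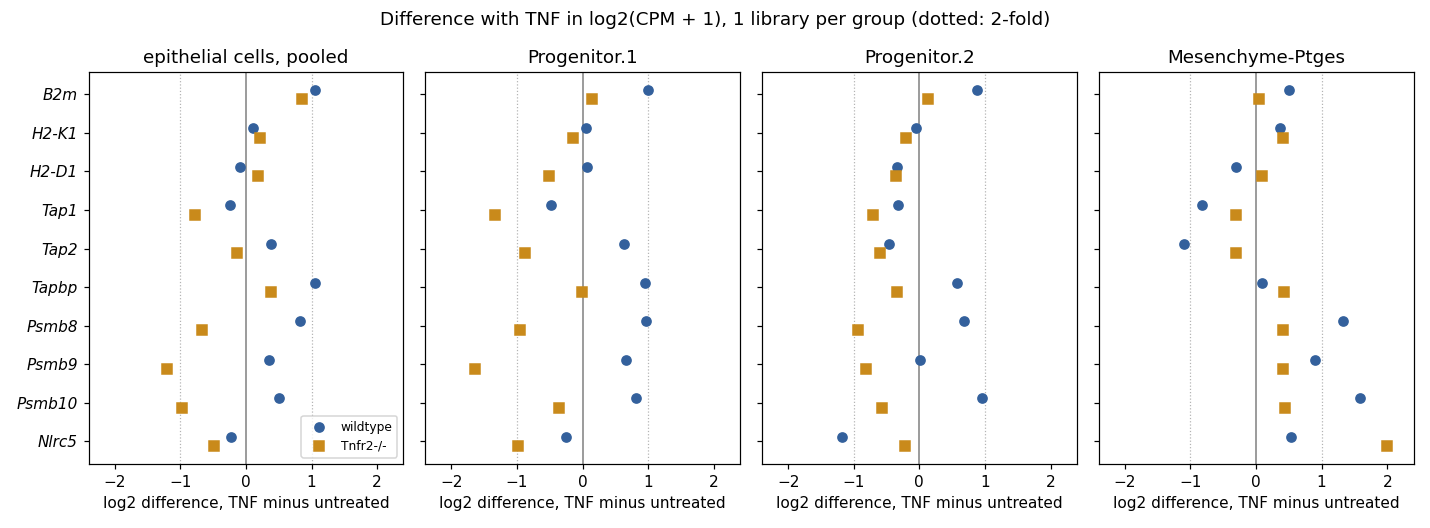
Difference with TNF (log2(CPM + 1), TNF minus untreated) of each member in wildtype (blue circles) and Tnfr2-/- (ochre squares), for all epithelial cells, Progenitor.1, Progenitor.2 and Mesenchyme-Ptges. In epithelial cells B2m lies at 1.05 and 0.85 and Psmb10 at 0.51 and -0.97; in Progenitor.1 B2m lies at 1.00 and 0.15.

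Between genotypes without TNF, Psmb8 (15.7 against 5.30 CPM, a log2 difference of 1.41) and Tap1 (18.3 against 8.21 CPM, 1.07) were more than 2-fold higher in Tnfr2-/- epithelial cells but stayed below 20 CPM, so that 0 of 5 members were called higher (2.42% of genes) and 0 lower (3.59%). Tapbp differed by 0.98 and B2m by 0.56, while H2-K1 differed by -0.22 and H2-D1 by -0.59, where the median gene differed by 0.11. The untreated Tnfr2-/- culture thus had more Tapbp and B2m and less H2-D1 than untreated wildtype. With TNF, the genotypes differed in 1 called member: Psmb10 was lower in Tnfr2-/- (20.8 against 58.7 CPM, -1.45), 1 of 5 against 6.37% of genes, and 0 of 5 were called higher against 5.04%. Psmb10 was called lower in Progenitor.2 but not in Progenitor.1, where the difference was -0.90. Psmb9 differed by -1.31 below the minimum (3.47 against 10.1 CPM). Within single classes the genotype counts were 0 of 5 without TNF in Progenitor.1 (2.25% of genes) and Progenitor.2 (7.98%), and 0 and 1 of 5 with TNF (3.33% and 7.92%).

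Genes of chromosome 2, which carries B2m, were on the whole higher in untreated Tnfr2-/- epithelial cells. The median Tnfr2-/- minus wildtype difference in untreated epithelial cells was 0.36 over 496 genes of chromosome 2 and 0.09 over 281 genes of chromosome 17, against 0.11 over all 6021 genes. Within 10 Mb of B2m it was 0.09 over 82 genes. The part of a chromosome-wide difference in the value of B2m was not tested.

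Mesenchymal cells could be compared between all 4 libraries in Mesenchyme-Ptges only, with 34, 304, 37 and 122 cells and a median of 5755 UMIs per cell in untreated wildtype against 21965 to 48633 UMIs elsewhere, a gap whose part in the values was not tested. Psmb8 read 105, 265, 209 and 278 CPM in this class, Psmb10 read 58.4, 178, 58.8 and 80.1 CPM, and Tap2 read 84.7, 38.9, 48.0 and 38.8 CPM. With TNF in wildtype, 2 of 9 members were called higher (Psmb8 and Psmb10) and 1 lower (Tap2), where 24.4% of genes were called in 1 direction or the other. In Tnfr2-/- 0 of 9 were called with TNF (8.71% of genes). Between genotypes B2m was called higher in untreated Tnfr2-/- (5038 against 2084 CPM, 1 of 9 members against 24.7% of genes), and Psmb10 lower in TNF-treated Tnfr2-/- (1 of 9 against 14.6%).

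A second class, Mesenchyme-generic, could be compared between the untreated cultures (51 cells of Tnfr2-/- and 393 of wildtype, with medians of 24774 and 21807 UMIs). There all 10 members were higher in Tnfr2-/-, and 7 of 10 were called higher, against 5.9% of genes, with 0 called lower, against 2.32%. Psmb9 read 136 against 40.0 CPM, a log2 difference of 1.74 (interval of the log2 ratio 1.50 to 2.03), Tapbp 509 against 169 CPM (1.59) and Tap1 130.5 against 45.7 CPM (1.49). Nlrc5 read 25.2 against 7.80 CPM (33 and 70 UMIs), H2-K1 2414 against 975 CPM, Psmb8 316 against 132 CPM and Psmb10 156 against 69.9 CPM. B2m (4698 against 2718 CPM), H2-D1 and Tap2 differed by 0.79, 0.84 and 0.94 and were not called. The median of these differences was 1.28, where the median of all genes was 0.11. In Mesenchyme-Ptges of the same cultures 1 of 9 was called, so the 2 classes did not give the same count. The interferon-stimulated genes counted below were also all higher in Mesenchyme-generic of untreated Tnfr2-/-, by 1.37 (Bst2) to 5.07 (Cxcl10). Whether the members followed them was not tested.

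Some members varied together between cells of 1 class and library, though correlations of sparse counts are descriptions only and cells of 1 library share their culture. Over the 639 cells of untreated Tnfr2-/- Progenitor.1 with at least 10000 UMIs, Pearson's r was 0.62 for H2-K1 and H2-D1, 0.56 for B2m and H2-K1, 0.55 for Tap1 and Psmb8 and 0.60 for Psmb8 and Psmb9, against 0.03 for B2m and Gapdh. In the 538 cells of untreated wildtype Progenitor.1 the same pairs gave 0.51, 0.38, 0.22 and 0.34. They were lower with TNF: 0.38, 0.33, 0.08 and 0.21 in the 334 wildtype cells and 0.29, 0.14, 0.19 and 0.06 in the 93 Tnfr2-/- cells of that class. In the 258 cells of TNF-treated wildtype Progenitor.2, Tap1 and Psmb8 gave 0.03. Tnfr2-/- Progenitor.2 did not follow this for every pair. There the same pairs gave 0.55, 0.36, 0.14 and 0.67 in the 212 untreated cells. In the 690 TNF-treated cells they gave 0.66, 0.55, 0.18 and 0.25, so that only Psmb8 and Psmb9 gave a lower value. The comparison pair, B2m and Gapdh, varied as well. In Progenitor.1 it gave -0.03 in untreated wildtype, -0.11 in TNF-treated wildtype and -0.33 in TNF-treated Tnfr2-/-. In Progenitor.2 it gave -0.31 and -0.15 in untreated and TNF-treated wildtype, and -0.12 and 0.01 in untreated and TNF-treated Tnfr2-/-. In Progenitor.1 the correlation of Psmb8 with the sum of 7 interferon-stimulated genes (Isg15, Ifit1, Ifit2, Ifit3, Rsad2, Usp18, Oas1a) was 0.67 in untreated Tnfr2-/- and 0.26 in untreated wildtype. With TNF it was 0.19 in Tnfr2-/- and 0.42 in wildtype Progenitor.1. In untreated Progenitor.2 it was alike, at 0.33 in Tnfr2-/- and 0.31 in wildtype.

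A small share of cells carried much of the inducible transcripts. In untreated Tnfr2-/- Progenitor.1 the 10% of cells with the highest sum of those 7 genes (64 cells, with 21 cells near the limit; a range of a score, not a cell type) held 9.35% of all UMIs but 56.1% of Psmb8, 49.5% of Psmb9, 40.8% of Tap1 and 29 of the 36 Nlrc5 UMIs. Psmb8 stood at 87.5 CPM in these cells and at 7.07 CPM in the other 575, a ratio of 12.4 (10.4 to 14.7). The other ratios were 9.49 for Psmb9, 6.69 for Tap1, 4.33 for Tap2, 3.43 for Psmb10, 2.96 for B2m, 2.44 for Tapbp, 2.01 for H2-D1, 1.78 for H2-K1, and the constitutive subunit Psmb5 was at 0.988.

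The same split of Progenitor.1 gave smaller Psmb8 ratios in the other libraries. In untreated wildtype Progenitor.1 (54 and 484 cells) Psmb8 was 4.99 (3.19 to 7.67) times higher, Tap1 3.61 times and B2m 1.92 times. In TNF-treated wildtype (34 and 300 cells) the ratios were 4.92, 2.35 and 1.46, and in TNF-treated Tnfr2-/- (10 and 83 cells) Psmb8 was at 2.70 (1.16 to 5.78). In untreated Tnfr2-/- Progenitor.2 (22 and 190 cells) they were 9.86, 3.91 and 1.28. Mesenchymal markers read 1.46 CPM in sum in the interferon-stimulated cells of untreated Tnfr2-/- Progenitor.1, against 2.14 CPM in the other cells. The ratio was 0.683 with an interval of 0.215 to 1.67, which includes higher levels, and all of that class held 76 marker UMIs. In TNF-treated Tnfr2-/- Progenitor.2 the markers were 2.72 times higher in the interferon-stimulated cells, beside ratios of 3.87 for Psmb8 and 3.89 for Tap1. The part of mesenchymal transcripts in the member ratios was not tested in either class.

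**Figure D4:**
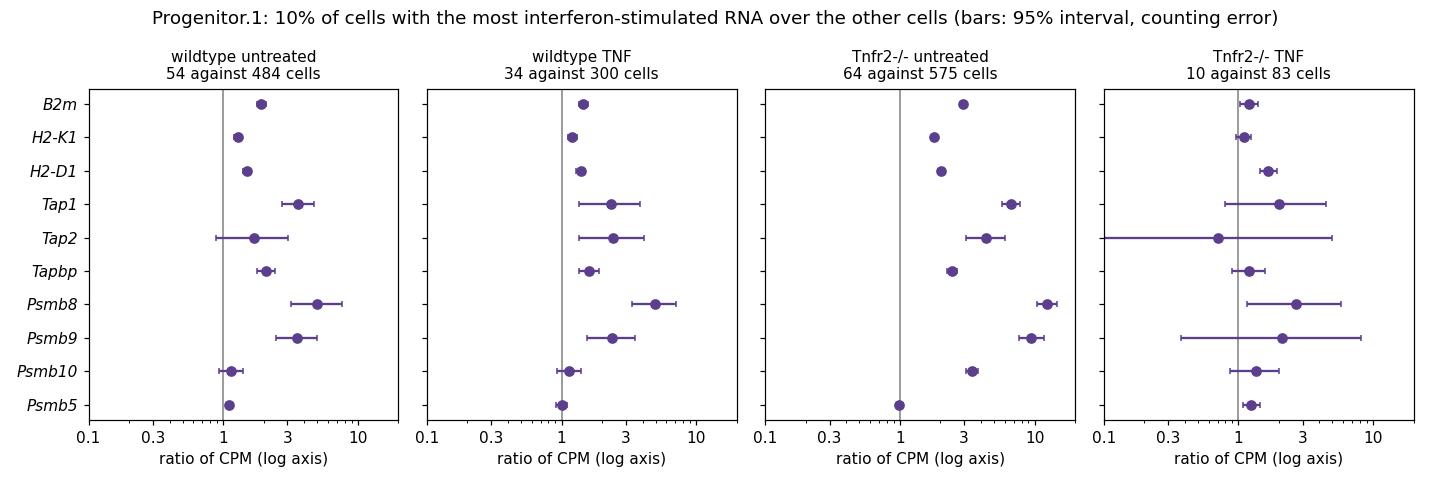
Level (CPM) of 9 members and Psmb5 in the 10% of Progenitor.1 cells with the highest sum of 7 interferon-stimulated genes divided by the level in the other Progenitor.1 cells of the same library (ratio, log axis), with exact intervals (95%, counting error only); Nlrc5 is not drawn, and the interval of Tap2 in TNF-treated Tnfr2-/- runs past the left edge. In untreated Tnfr2-/- Progenitor.1 the ratio runs from 12.4 for Psmb8 to 1.78 for H2-K1, and the constitutive subunit Psmb5 lies at 0.988.

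The listed genes around the members gave the following counts. Of 15 interferon-stimulated genes, 11, 12, 12 and 8 were called higher in mesenchymal than in epithelial cells. The shares of all genes at the minimum were 25.1%, 21.2%, 23.1% and 20.9%. In epithelial cells, 15 of 15 were above 0 in untreated Tnfr2-/- minus untreated wildtype. Of these, 4 of 7 at the minimum were called higher (Isg15, Ifit1, Ifit3 and Rsad2, with Isg15 at 145 against 57.1 CPM), where 2.42% of genes were. With TNF in Tnfr2-/-, 15 of 15 were below 0 and 6 of 7 were called lower (7.81% of genes). In wildtype 2 of 3 were called lower (1.08% of genes). Between genotypes with TNF, 1 of 4 was called higher (Ifit1), against 5.04% of genes, and 1 lower (Cxcl10), against 6.37%. The interferon genes themselves were low in epithelial cells. Ifng had no UMI in any library, and a limit of 3 counts, not an exact interval, is 0.0754 CPM in the shallowest sum. Ifnb1 read 0.397, 0, 1.88 and 0.0754 CPM, highest in untreated Tnfr2-/-, and its part in the interferon-stimulated values was not tested.

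Of 20 regulators, 8, 6, 9 and 4 were called higher in mesenchymal cells, and of 13 interferon ligand, receptor and kinase genes 5, 3, 4 and 2 were, Ifnar2 and Jak2 in each library. Of these, 14, 14, 15 and 14 regulators and 7 interferon genes in each library reached the minimum, and 25.1%, 21.2%, 23.1% and 20.9% of all genes were called higher. In TNF-treated Tnfr2-/- the counts (4 of 14 and 2 of 7) lay close to that share. Among regulators, the NF-kappaB genes Nfkb2 and Relb were the 2 of 10 called higher with TNF in wildtype epithelial cells, Nfkb2 from 14.3 to 43.1 CPM and Relb from 25.9 to 62.8 CPM. Nfkb2 was also called higher in untreated Tnfr2-/- than in untreated wildtype (33.7 CPM, 1 of 11). Irf1, a direct activator of several members, read 9.52, 18.0, 16.9 and 26.0 CPM in epithelial cells and 53.0, 40.3, 42.7 and 53.0 CPM in mesenchymal cells. Rela read 23.7, 40.6, 46.2 and 74.0 CPM in epithelial cells.

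Of the other class I heavy chains, 7 of 9, 6 of 8, 8 of 8 and 7 of 8 at the minimum were called higher in mesenchymal cells. The shares of all genes were 25.1%, 21.2%, 23.1% and 20.9%. H2-Q7, a Qa-2 gene, read 1.77, 5.32, 2.72 and 6.11 CPM in epithelial cells and 224, 388, 429 and 714 CPM in mesenchymal cells. H2-T23, which encodes the Qa-1 molecule, was alike in both cell types of wildtype (74.1 and 88.2 CPM against 75.5 and 74.6 CPM) and higher in mesenchymal cells of Tnfr2-/- (83.7 and 101 CPM against 188 and 157 CPM). H2-Q10 was the heavy chain called lower in Tnfr2-/- epithelial cells both without TNF (6.18 against 32.6 CPM) and with it (10.0 against 41.3 CPM). Among epithelial values of the loading chaperones, Calr read 353, 441, 496 and 609 CPM, Canx 219, 240, 271 and 252 CPM, and Pdia3 420.0, 485, 419 and 327 CPM. Of 9 loading and trimming genes, 5, 5, 3 and 3 were called higher in mesenchymal cells, Erap1 in each library. Set against the same shares of all genes, the counts of the Tnfr2-/- libraries (3 of 9) were not far above them. Within epithelial cells the chaperone Hspa5 was called higher in TNF-treated Tnfr2-/- (1130.0 CPM, against 499.7 CPM untreated and 512 CPM in TNF-treated wildtype), and Erap1 was called lower there than in TNF-treated wildtype (11.0 against 23.2 CPM). MHC class II genes were below 2 CPM in the sums of all epithelial cells. In Enteroendocrine cells, however, Cd74 read 37.9 CPM in TNF-treated wildtype (33 UMIs) and H2-Ab1 16.4 CPM in TNF-treated Tnfr2-/- (8 UMIs). H2-Ab1 alone reached 20 CPM in mesenchymal cells (4.05, 9.18, 30.3 and 76.1 CPM), with Cd74 at most at 0.0680 CPM there.

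The genes whose levels over the 27 sums followed the summed members most closely were Xdh (Pearson's r of 0.97), Pld3 (0.95), Wls (0.94), Clec2d (0.94), Ctsl (0.94), B4galt1 (0.94), Bmp2 (0.94), Lamp1 (0.94), Psap (0.94) and Fkbp9 (0.93), among 10459 genes. The 27 sums share 4 libraries, and the split between mesenchymal and epithelial classes runs through all of them. Over the 19 epithelial sums alone, the closest were 1600012H06Rik (0.92), B4galt1 (0.92), Tcn2 (0.92), Dusp1 (0.92) and Cldn23 (0.92), so that B4galt1 was the 1 gene in both lists of 10. The summed members are dominated by the abundant heavy chains: within epithelial classes r was 0.97 for H2-K1 but 0.43 for Psmb8 and 0.03 for Psmb10.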

How the data were processed

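Single-cell 3' libraries were made from 4 colonoid cultures, 1 per group. Per the labels and the study's methods, the authors aligned reads with Cell Ranger 5.0.0 to mm10, deposited raw UMI counts per gene and cell, used monocle3, left out cells under 100 UMIs and cells between epithelial and mesenchymal profiles, and assigned classes by clustering. The deposited size factor of each cell, a score, was read but entered no result. Of the genes, 67 share a symbol with another. Of the cell barcodes, 3 were held by 2 libraries.

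UMIs were summed per class and library and scaled to CPM. Differences used a pseudocount of 1 CPM, a minimum of 20 CPM and a fold of 2, with exact Poisson and binomial intervals (95%). No test between groups was made. Alternatives covered the pseudocount, scaling (TMM from edgeR 4.0.16 in R 4.3.3, median-of-ratios factors), the minimum, cell filters, doublets and class mix; single-class settings and the barcode setting were chosen after seeing the data, as were the motifs and the interferon-stimulated cells. Scrublet (expected rate 0.06) called 46 cells (0.747%), which stayed in the main values. Thinning to 5000 UMIs left out 405 cells. All scripts ran under Python 3.11.15 with numpy 2.4.6, scipy 1.17.1, pandas 2.3.3, scanpy 1.11.5 and matplotlib 3.10.9, and the calls and intervals were tested on simulated data.

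All 10 members are named. Listed pathway genes were counted whole; the rule also asked for values of each listed gene at 20 CPM or more and of every regulator and interferon ligand, but values are given for some of these only, chosen after they were seen, and 1 listed regulator is not reported here. The genes most alike were the 10 with the highest Pearson correlation with the summed members among genes at 5 CPM or more. Members and lists were chosen with earlier results of these data known.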

Additional observations from a re-analysis of the deposited data

Results flagged for a closer look

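Each value below is a difference between genotypes in the log2 difference with TNF (Tnfr2-/- minus wildtype), given for members at 20 CPM or more whose difference had opposite signs in wildtype and Tnfr2-/-, each beyond its counting interval. Every genotype and treatment had 1 library, so the difference was not tested. In all epithelial cells it was -1.48 for Psmb10 (0.51 in wildtype, -0.97 in Tnfr2-/-) and 0.27 for H2-D1 (-0.08 and 0.19). In Progenitor.1 it was -1.18 for Psmb10, -0.57 for H2-D1 and -0.20 for H2-K1. In Progenitor.2 it was -1.52 for Psmb10 and -0.92 for Tapbp. In Mesenchyme-Ptges it was 0.41 for H2-D1. H2-D1 was thus positive in all epithelial cells and negative in Progenitor.1, while Psmb10 was negative in all 3 epithelial sums. Some members below 20 CPM also had opposite signs, and their differences rest on fewer UMIs: in all epithelial cells Psmb9 differed by -1.55, Psmb8 by -1.49 and Tap2 by -0.52, in Progenitor.1 by -2.31, -1.93 and -1.51, and in Progenitor.2 Psmb8 by -1.63 and Psmb9 by -0.82.

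A signal also appeared in cells that no comparison used. The 31 cells of untreated wildtype without a class had Psmb8 at 77.2 CPM (65.8 to 90.1), against 5.30 CPM in epithelial cells and 298 CPM in mesenchymal cells of that library. These cells carried Epcam at 2122 CPM and Col1a1 at 713 CPM together, at a median of 66566 UMIs per cell, and scrublet called 25 of the cells without a class as doublets.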

How the results depend on the processing

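The count of members called higher in mesenchymal cells was 9 in each library and stayed at 9 under 5 of 7 alternatives; it was 10 with no minimum, and 8, 9, 8 and 9 with Mesenchyme-Ptges as the only mesenchymal class. For epithelial cells, TNF against untreated in wildtype gave 2 members higher, 1 with a pseudocount of 10 CPM, and 0 with TMM, with median-of-ratios factors, with Progenitor.1 and Progenitor.2 weighted equally, in Progenitor.1 only and in Progenitor.2 only. In Tnfr2-/- it gave 0 higher, 1 with TMM and 1 with median-of-ratios factors, and 0 lower, 1 with no minimum. Tnfr2-/- against wildtype without TNF gave 0 higher, 2 with no minimum and 1 with the mean of per-cell CPM. With TNF it gave 1 lower, 2 with no minimum and 0 in Progenitor.1 only. With TNF in Tnfr2-/-, Tapbp, H2-K1 and H2-D1 changed sign in 3 of 13 alternatives each. No paired analysis was possible because each group had 1 library, and no replicate could be left out. Low members are limited by depth: Nlrc5 rests on 5 to 44 UMIs per epithelial sum.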
